A study of Mus musculus with 6 samples.

Results

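The genes described here encode the machinery of antigen presentation by major histocompatibility complex (MHC) class II, in hearts of 10-day-old mice. They were taken by name: H2-Aa, H2-Ab1, H2-Eb1, H2-DMa, H2-DMb1, Cd74 and Ciita, 7 of the 46452 genes of the deposited table. All 7 names were found. Expression was measured by RNA sequencing in 6 heart libraries, 3 labelled Nat10flox/flox (mice with loxP-flanked alleles of Nat10, the RNA acetyltransferase gene) and 3 labelled Nat10-CKO (CKO stands for conditional knockout). The labels call the 3 samples of each group independent biological replicates. Strain, Cre driver and deleted exons are not given in the sources used here. The series addresses the effect of NAT10 on heart development.

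MHC class II molecules show peptides from endocytosed proteins to CD4+ T cells. An alpha and a beta chain pair in the endoplasmic reticulum with the invariant chain, encoded by Cd74, which fills the peptide groove and directs the complex to endosomes. There the peptide exchange factor H2-DM, a dimer of the products of H2-DMa and H2-DMb1, replaces the last invariant chain fragment with antigenic peptide. In the mouse the classical molecules are I-A (H2-Aa and H2-Ab1) and I-E (H2-Ea and H2-Eb1). The class II transactivator, encoded by Ciita, switches these genes on together. It binds no DNA by itself and is held at their promoters by RFX, CREB and NF-Y. Dendritic cells, B cells and a subset of macrophages carry class II at rest, and interferon gamma induces Ciita in other cell types. The heart muscle cell is not a professional presenting cell. In bulk tissue, fewer cells of a type and less RNA per cell cannot be told apart.

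Nat10, the targeted gene, was 3.75, 4.18 and 4.71 FPKM (reads per gene divided by gene length and by a scale for each library) in the Nat10flox/flox libraries and 8.28, 8.66 and 10.2 FPKM in those labelled Nat10-CKO. Nat10 RNA, counted over the whole gene, was thus higher under the knockout label. With the deleted exons not given, these values do not show whether the deletion took place. Every direction below refers to the labels. Reads in genes numbered 31155521 to 38051266 per library. Mitochondrially encoded genes took 16.6% to 18.3% of reads in the Nat10flox/flox libraries and 7.56% to 9.26% in those labelled Nat10-CKO. Cardiomyocyte markers were high in every library (8 of 8 genes, summed level 13812 to 25014 FPKM). A single library stood apart for the genes described here: all 7 were highest in Nat10flox/flox replicate 2, which held the highest value for 14.2% of the 11996 tested genes. For these 7 genes, each fold of means below is therefore also given without that library.

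RefSeq promoter sequences (GRCm38.p6) were available for 4 of the 7 genes, H2-Aa, H2-Eb1, H2-DMb1 and H2-DMa, the last with 2 starts. Each was located on GRCm39 by an exact match. The 250 bases before the start are shown 5′ to 3′ for the 3 genes in which a pair of short motifs recurs. Capitals mark 1 pair in each: GNAACT, letters within the X box where RFX binds, and ATTGG, the inverted CCAAT of the Y box where NF-Y binds. In H2-Aa they also mark TGACGTCA, the cyclic AMP response element bound by CREB family proteins. H2-Aa lies at chr17:34506798-34507047 on the minus strand, H2-Eb1 at chr17:34524591-34524840 and H2-DMb1 at chr17:34371915-34372164, both on the plus strand.
H2-Aa: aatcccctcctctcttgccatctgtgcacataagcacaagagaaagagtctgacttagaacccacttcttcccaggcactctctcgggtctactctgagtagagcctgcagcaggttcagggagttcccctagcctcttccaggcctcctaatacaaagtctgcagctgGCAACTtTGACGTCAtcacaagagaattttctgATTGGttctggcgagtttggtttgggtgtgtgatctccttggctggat
H2-Eb1: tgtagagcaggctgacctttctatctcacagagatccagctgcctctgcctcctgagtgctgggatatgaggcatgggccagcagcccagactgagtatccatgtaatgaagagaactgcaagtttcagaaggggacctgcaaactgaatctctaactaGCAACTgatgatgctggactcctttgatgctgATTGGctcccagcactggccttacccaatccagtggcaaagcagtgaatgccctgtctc
H2-DMb1: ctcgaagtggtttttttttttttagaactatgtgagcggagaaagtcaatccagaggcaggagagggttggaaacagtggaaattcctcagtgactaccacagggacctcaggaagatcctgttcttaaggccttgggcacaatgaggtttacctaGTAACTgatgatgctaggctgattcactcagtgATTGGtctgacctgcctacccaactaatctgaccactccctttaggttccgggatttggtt

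GNAACT began 81 bases before the start of H2-Aa, 91 before that of H2-Eb1 and 94 before that of H2-DMb1. ATTGG followed 33, 32 and 33 bases further on. The letters and the spacing of 30 to 36 bases were chosen after reading these sequences. Of 32851 RefSeq promoter stretches of the same length, 37.3% held GNAACT on either strand, 33.8% held ATTGG and 0.298% held the pair at that spacing in one orientation. TGACGTCA occurred in 1.55%. H2-Aa and H2-Eb1 each held a further GNAACT on the opposite strand, and H2-Eb1 a further CCAAT. Neither stretch of H2-DMa held the pair. They lie at chr17:34341556-34341805 and chr17:34344242-34344491, inside the annotated span of the gene, which starts at 34338667. The first overlaps the annotated start of Brd2, which runs from 34341581 on the opposite strand. The bases before the annotated start of H2-DMa were not searched. A match of letters is a description of these windows and does not show that a factor binds there.

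The chains of I-A, the beta chain of I-E and the invariant chain were about 4-fold lower in the libraries labelled Nat10-CKO, or 2.40- to 2.71-fold lower without Nat10flox/flox replicate 2. H2-Aa, H2-Ab1, H2-Eb1 and Cd74 passed the threshold (limma adjusted p under 0.05 over 11996 genes), and 0 members were higher, also at an unadjusted p under 0.05 and with limma voom on recovered reads. At an unadjusted p under 0.05, 5 members were lower, where 20.9% of all tested genes were. H2-DMb1 and H2-DMa had lower means but did not pass, and Ciita fell below the filter on low values. Thus 4 of the 6 tested members were lower, where 16.0% of all tested genes were (1924 genes). The median log2 fold change was -1.83 over the 6 tested members and 0.035 over all tested genes. The groups did not overlap for 6 of the 7 genes, all lower in the libraries labelled Nat10-CKO, where 24.4% of tested genes had such an order. Over all tested genes 60.4% of calls were higher, 48.7% with mitochondrially encoded genes left out and 72.4% after setting the protein-coding total equal in all libraries (median of all genes then 0.17). The 6 tested members kept a negative fold change under both scalings.

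**Figure D1:**
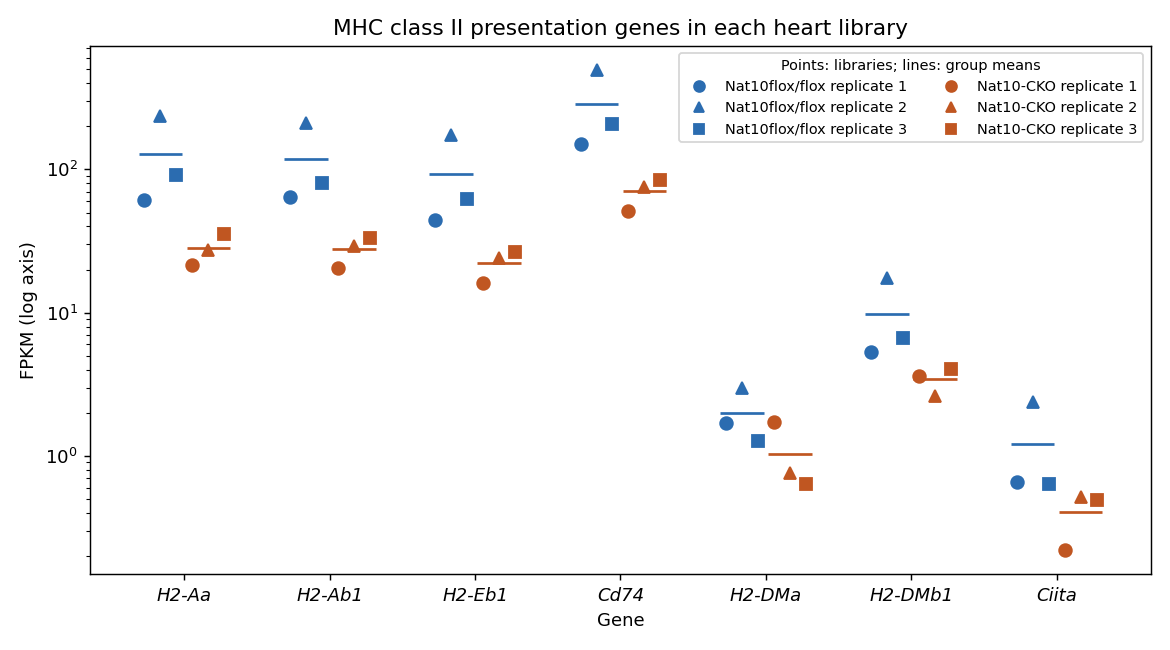
Level of each MHC class II presentation gene in FPKM (log axis) in the 6 heart libraries, 3 per group, with lines at the group means. The chain genes and Cd74 separate by label, Nat10flox/flox replicate 2 is the highest library for all 7 genes, and the groups overlap for H2-DMa.

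H2-Aa, the alpha chain of I-A (gene ID 14960) at chromosome 17, 34501718 to 34506797 on the minus strand of GRCm39, was 61.2, 235 and 91.2 FPKM in the Nat10flox/flox libraries and 21.6, 27.5 and 35.3 FPKM in those labelled Nat10-CKO. Nat10flox/flox replicate 2 was over all others, and the lowest Nat10flox/flox value still lay above the highest of the other group. Group averages were 129 ± 92.6 against 28.1 ± 6.88 FPKM (SD, n = 3), which is 4.59-fold lower, or 2.71-fold without Nat10flox/flox replicate 2. The log2 fold change, on the log2(FPKM + 1) scale, was -1.95 ± 0.47 (SE; limma adjusted p = 0.0175). It missed the threshold without the Nat10-CKO replicate 2 library (adjusted p = 0.0536).

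H2-Ab1, the beta chain that pairs with it (gene ID 14961, chromosome 17, 34482201 to 34488392, plus strand), was 64.1, 211 and 80.8 FPKM against 20.5, 29.2 and 33.2 FPKM. The order of the libraries was the same as for H2-Aa within each group, with no overlap between groups. Its means were 119 ± 80.5 and 27.6 ± 6.49 FPKM (SD, n = 3), 4.30-fold apart, or 2.62-fold without Nat10flox/flox replicate 2. The log2 fold change was -1.89 ± 0.44 (SE; limma adjusted p = 0.0152). It passed with each single library left out (adjusted p 0.0121 to 0.0437).

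H2-Eb1, the beta chain of I-E (gene ID 14969, chromosome 17, 34524841 to 34535648, plus strand), was 44.5, 175 and 61.7 FPKM against 16.0, 23.9 and 26.5 FPKM. The groups again did not overlap. Its means were 93.6 ± 70.7 and 22.1 ± 5.45 FPKM (SD, n = 3), 4.23-fold apart and 2.40-fold without Nat10flox/flox replicate 2. The log2 fold change of -1.81 ± 0.49 (SE; limma adjusted p = 0.0257) missed the threshold without Nat10flox/flox replicate 3 (adjusted p = 0.051) and without Nat10-CKO replicate 1 (0.0622) or 2 (0.0637).

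The partner of H2-Eb1 set 1 library apart. H2-Ea, the alpha chain of I-E (gene ID 100504404, listed as a transcribed pseudogene, since some inbred strains carry a null allele), had 35 reads (0.824 FPKM) in Nat10flox/flox replicate 1 and 0 reads in the other 5 libraries. A count of 0 allows up to 3 reads, or 0.0780 to 0.0908 FPKM in those libraries, for counting error alone. H2-Eb2, a second beta chain gene, had 0 reads in all 3 Nat10flox/flox libraries and 6, 3 and 6 in those labelled Nat10-CKO. Neither gene entered the test. The class II chains differ strongly in sequence between mouse strains, and the strains of these mice are not given in the sources used here. How alleles that differ from the reference were counted was not tested.

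Cd74, the invariant chain (gene ID 16149, chromosome 18), was the most abundant of the 7 per kilobase. It stood at 152, 495 and 206 FPKM in the Nat10flox/flox libraries and 51.0, 75.5 and 84.3 FPKM in those labelled Nat10-CKO. Its means were 284 ± 184 and 70.3 ± 17.3 FPKM (SD, n = 3), 4.05-fold apart, or 2.55-fold without Nat10flox/flox replicate 2. The log2 fold change was -1.84 ± 0.44 (SE; limma adjusted p = 0.0162), and it passed with each single library left out (adjusted p 0.0134 to 0.0447).

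H2-DMb1, the beta chain of the exchange factor (gene ID 14999, chromosome 17, 34372165 to 34379203, plus strand), was 5.34, 17.5 and 6.64 FPKM against 3.61, 2.62 and 4.01 FPKM. These values rest on 117 to 711 reads per library. The groups did not overlap, but the gap between the nearest libraries was small beside the spread of the Nat10flox/flox group. The fold of means was 2.88, or 1.75 without Nat10flox/flox replicate 2. The log2 fold change of -1.14 ± 0.39 (SE) did not pass (limma adjusted p = 0.0568). It did pass without Nat10flox/flox replicate 2, at a smaller size (-0.67 ± 0.19 SE, adjusted p = 0.0454), and without Nat10flox/flox replicate 1 (-1.44, 0.0371).

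H2-DMa, the alpha chain of the same dimer (gene ID 14998, chromosome 17, 34338667 to 34358075, plus strand), was the only member whose groups overlapped. It was 1.69, 2.98 and 1.27 FPKM in the Nat10flox/flox libraries and 1.72, 0.754 and 0.636 FPKM in those labelled Nat10-CKO. The library labelled Nat10-CKO replicate 1 lay above 2 of the Nat10flox/flox libraries. The fold of means was 1.91, or 2.85 without Nat10-CKO replicate 1 and 1.43 without Nat10flox/flox replicate 2. The log2 fold change was -0.55 ± 0.28 (SE; limma adjusted p = 0.162). The table gives this gene 8325 bases, against 1284 for H2-DMb1, so its FPKM cannot be set beside that of its partner, and its reads (180 to 785 per library) exceeded those of H2-DMb1 in each library. Its span overlaps Brd2, which encodes a chromatin reader on the opposite strand and rose under the Nat10-CKO label (23.4 ± 1.62 against 33.2 ± 3.47 FPKM, log2 fold change 0.49, limma adjusted p = 0.0164). The labels describe a directional (dUTP) library, but do not give the strand setting of the counting. The part of Brd2 reads in the H2-DMa value was not tested.

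Ciita, the class II transactivator (gene ID 12265, chromosome 16, 10297877 to 10348928, plus strand), was 0.661, 2.36 and 0.636 FPKM against 0.219, 0.513 and 0.494 FPKM. The order of the groups was that of the chains, with no overlap, and Nat10flox/flox replicate 2 was again far above the rest. Its mean over the 6 libraries, 0.813 FPKM, lay under the filter of 1, although the gene is long (9775 bases) and held 79 to 730 reads per library. The fold of means was 2.98, or 1.59 without Nat10flox/flox replicate 2. An alternative chosen after the data were seen, voom on reads over genes with a mean of at least 20 reads, gave a log2 fold change of -1.35 ± 0.64 (SE; limma adjusted p = 0.143). With no filter the limma value was -0.58 ± 0.31 (SE; adjusted p = 0.304). Its span overlaps Dexi on the opposite strand.

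**Figure D2:**
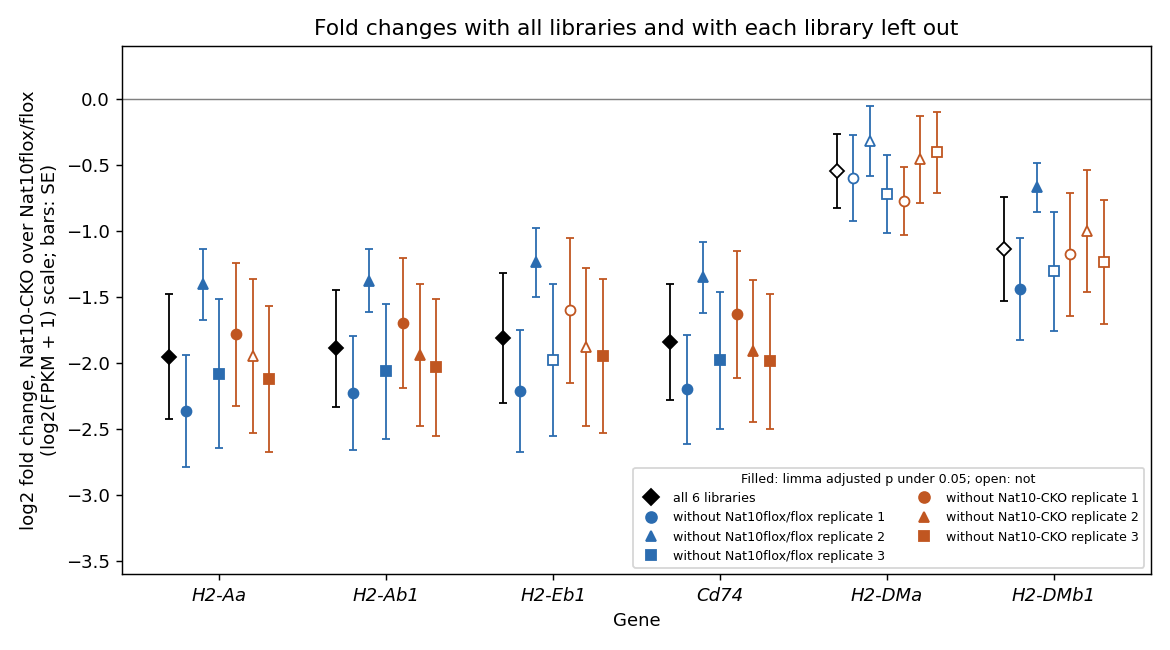
Log2 fold change (log2(FPKM + 1) scale) of libraries labelled Nat10-CKO over Nat10flox/flox for the 6 tested genes, with all libraries and with each library left out, with standard errors as bars and filled symbols for a limma adjusted p under 0.05. Every value is below 0, and leaving out Nat10flox/flox replicate 2 gives the value nearest to 0 for each gene.

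The chains and the invariant chain kept nearly fixed proportions while their summed level varied. The summed level of the 7 genes was 329, 1138 and 449 FPKM in the Nat10flox/flox libraries and 115, 160 and 184 FPKM in those labelled Nat10-CKO, a 9.93-fold range. Over that range Cd74 made up 43.5% to 47.2% of the sum, H2-Aa 17.2% to 20.6%, H2-Ab1 17.9% to 19.5% and H2-Eb1 13.5% to 15.3%. The ratio of H2-Aa to H2-Ab1, which encode the 2 chains of 1 molecule, was 0.942 to 1.13, so their order changed between libraries and they did not differ beyond their spread. The ratio of H2-Eb1 to H2-Ab1 was 0.695 to 0.827 and that of Cd74 to H2-Ab1 was 2.34 to 2.59. The level order Cd74, then the I-A chains, then H2-Eb1, then H2-DMb1 thus held in each library. These ratios are taken within a library and do not depend on its scaling.

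Of the exchange factor, the beta chain did not keep that proportion. H2-DMb1 was 0.0833, 0.0828 and 0.0821 of H2-Ab1 in the Nat10flox/flox libraries and 0.176, 0.0900 and 0.121 of it in those labelled Nat10-CKO. The 3 Nat10flox/flox values had an SD of 0.000578, although the level of H2-DMb1 itself spanned 5.34 to 17.5 FPKM among them. Each value of the other group was higher. H2-DMb1 had 279, 711 and 303 reads in the Nat10flox/flox libraries and 171, 117 and 175 in the others. The counting error of so few reads is larger than this SD, so the SD does not measure how exact the proportion is. The alpha chain, H2-DMa, was 0.0263, 0.0141 and 0.0158 of H2-Ab1 against 0.0840, 0.0259 and 0.0191, and the groups overlapped. Ciita was 0.0103, 0.0112 and 0.00787 of H2-Ab1 against 0.0107, 0.0176 and 0.0149, where the groups overlapped. These differences in proportion were not tested.

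**Figure D3:**
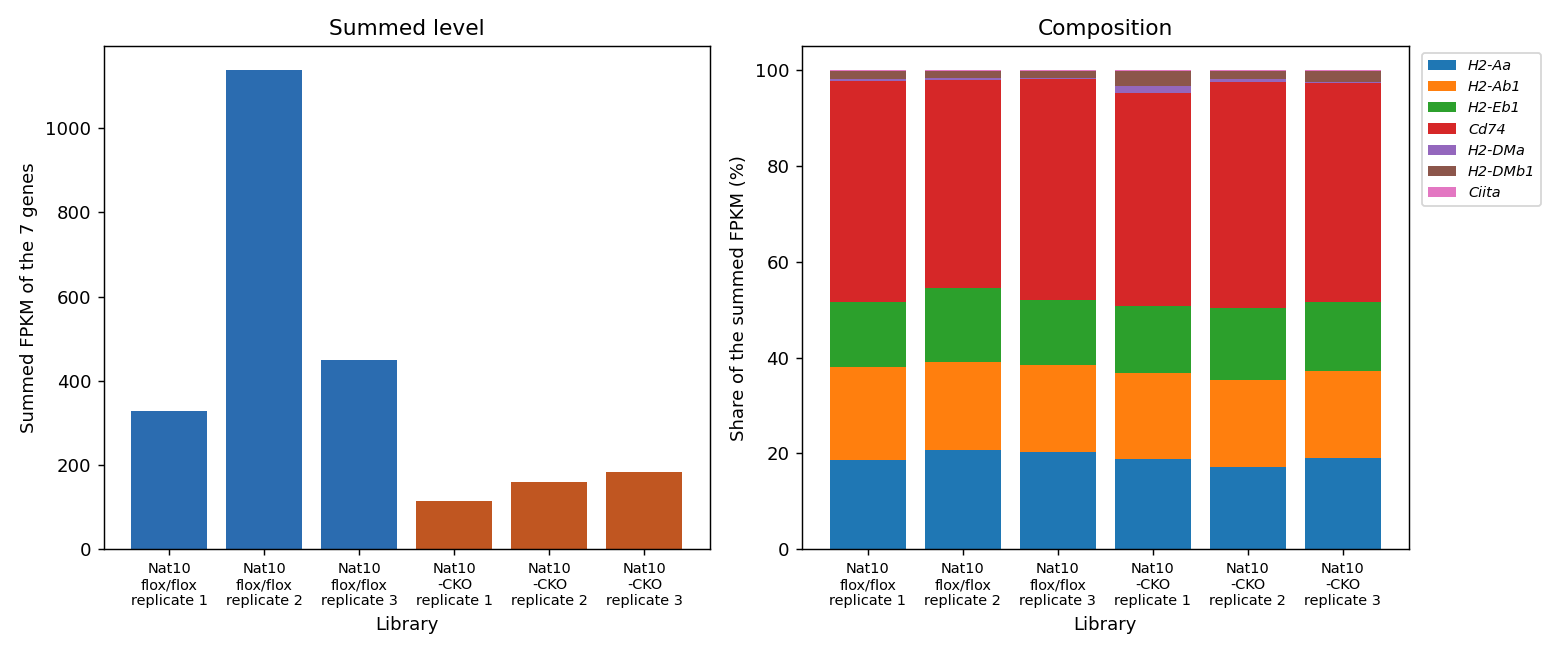
Left, summed FPKM of the 7 genes in each library (bars start at 0, blue for Nat10flox/flox, orange for Nat10-CKO). Right, the share of each gene in that sum in percent. The sum runs from 115 to 1138 FPKM while the share of Cd74 stays between 43.5% and 47.2%.

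The regulators of the class II promoters were mostly without a call. Of 11 such genes, Ciita included, 8 were tested, 1 was higher and 0 were lower (limma; 1 lower at an unadjusted p under 0.05, 1 with voom). The higher one, Nfyc, a subunit of NF-Y, was 8.55, 9.92 and 11.4 FPKM against 14.8, 14.0 and 17.2 FPKM (adjusted p = 0.0144, or 0.0504 without Nat10flox/flox replicate 2). Rfxap, Rfxank, Nfya and Nfyb had log2 fold changes of 0.03 to 0.19 and did not pass. Creb1 had -0.35 ± 0.12 (SE; limma adjusted p = 0.0515). Rfx5, the RFX subunit that contacts Ciita, was under the filter at 0.842, 0.864 and 1.02 FPKM against 0.518, 0.432 and 0.416 FPKM. Unlike the chains, Rfx5 was not highest in Nat10flox/flox replicate 2. With no filter, Rfx5 passed (limma adjusted p = 0.0425). In the voom fit over genes with at least 20 reads, Rfx5 (-0.99 ± 0.19 SE, limma adjusted p = 0.00705), Irf4 (-1.51, 0.0407) and Creb1 (-0.48, 0.0365) were lower. The leukocyte factors Spi1 (17.5 ± 3.82 against 18.3 ± 3.23 FPKM) and Irf8 (7.45 ± 2.42 against 5.42 ± 0.285 FPKM) did not pass.

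No other tested loading or turnover gene of the pathway had a call, but H2-Ob, H2-Oa, H2-DMb2 and Marchf1 were below the filter and not tested. With no filter these were tested and none was called. H2-Ob, the beta chain of the DM inhibitor H2-DO, had 41, 95 and 47 reads against 15, 28 and 22. In FPKM its groups did not overlap, with a fold of means of 2.86, or 1.88 without Nat10flox/flox replicate 2. Its partner H2-Oa had 3 to 11 reads in each library. H2-DMb2 had 18, 52 and 18 reads against 27, 11 and 13. Of the turnover genes, Marchf8, a ubiquitin ligase, and Cd83, which opposes such ligases, were tested and did not pass (limma adjusted p 0.594 and 0.185; 0 at an unadjusted p under 0.05 and 0 with voom). Marchf1, the ligase that acts on class II, was 0.495, 1.03 and 0.616 FPKM against 0.642, 0.705 and 0.743 FPKM, with no separation of the groups. The endosomal proteases and helpers that make peptides had 1 lower and 0 higher call among 8 tested (limma; Ctss and Ctsd higher at an unadjusted p under 0.05, 0 higher with voom). The lower one was Ctsh (24.9 ± 2.32 against 18.9 ± 0.503 FPKM, adjusted p = 0.0277). It missed the threshold without Nat10flox/flox replicate 2 (0.0999) or 3 (0.0952), without Nat10-CKO replicate 2 (0.0859) or 3 (0.0523) and with the protein-coding total set equal (0.112). Ctsd was called higher with that scaling (limma adjusted p = 0.0091) and without Nat10-CKO replicate 1 (0.0214). Ctss, which degrades the invariant chain in presenting cells, was 45.7, 75.2 and 41.7 FPKM in the Nat10flox/flox libraries and 83.8, 75.7 and 74.9 FPKM in the others, short of the threshold (limma adjusted p = 0.0855) but past it without Nat10flox/flox replicate 2 (0.0108).

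Genes around the members on chromosome 17 were described by position. From the start of H2-DMa to the end of H2-Eb1, 34338667 to 34535648, the table holds 8 other genes, of which 5 were tested, 1 lower and 1 higher by limma. The lower one was Psmb9, an immunoproteasome subunit, at 23.4, 51.3 and 24.4 FPKM against 6.94, 17.3 and 14.1 FPKM (adjusted p = 0.0414). It missed the threshold in 5 of the 6 fits with 1 library left out, with 0.103 as the largest adjusted p (without Nat10flox/flox replicate 2). The higher one was Brd2. The peptide transporter genes Tap1 (log2 fold change -1.16, limma adjusted p = 0.0515) and Tap2 (-0.58, 0.16) and the proteasome gene Psmb8 (-0.75, 0.166) did not pass.

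Class I presentation genes, which show cytosolic peptides to CD8+ T cells, were lower for 4 of 15 tested members and higher for 0 by limma, where 16.0% of all tested genes were lower. At an unadjusted p under 0.05, 8 were lower and 0 higher, and with voom 5 and 0. Their median log2 fold change was -0.64, and 15 of 15 were highest in Nat10flox/flox replicate 2. The 4 were Calr, Tapbp, Psmb9 and Canx, and 0 passed without Nat10flox/flox replicate 2 or without replicate 3, and 1 without Nat10-CKO replicate 3 or with no filter. Tapbp, the tapasin gene, was 43.0, 62.8 and 47.2 FPKM against 24.0, 36.01 and 29.0 FPKM (adjusted p = 0.0223). With the mitochondrially encoded genes left out 8 class I genes were lower, with protein-coding genes rescaled 2, and under quantile normalization 7.

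In the interferon gamma pathway 9 of 10 genes were tested, 1 lower and 0 higher (limma; 3 lower and 0 higher at an unadjusted p under 0.05, 1 and 0 with voom). Ifngr2, a receptor subunit, was 91.3, 91.7 and 84.2 FPKM against 30.03, 46.1 and 40.8 FPKM (log2 fold change -1.19 ± 0.17 SE, adjusted p = 0.0023). Unlike the class II genes, Ifngr2 was level among the Nat10flox/flox libraries. It passed in every alternative, as H2-Ab1 also did. Ifng itself had 2, 27 and 2 reads against 0, 2 and 2 reads, so 1 library held nearly all of them. Costimulatory genes were called for 0 of 4 tested members (limma; 1 lower at an unadjusted p under 0.05, 0 with voom).

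Markers of leukocytes were read beside the class II values. Ptprc, the leukocyte surface phosphatase CD45, was 7.89, 14.4 and 7.05 FPKM against 5.16, 6.47 and 6.21 FPKM (limma adjusted p = 0.106). The 7 pan-leukocyte genes had 0 calls (limma; 1 higher at an unadjusted p under 0.05, 0 with voom) and summed levels of 192 to 305 against 215 to 251 FPKM. The 14 macrophage genes summed to 455 to 625 against 477 to 550 FPKM, with 13 tested, 1 lower (Folr2) and 0 higher (0 of either kind with voom). The sums of both lists overlapped between the groups. Most of the macrophage sum came from C1qa, C1qb and C1qc, with Nat10flox/flox means of 135, 134 and 107 FPKM. Cx3cr1 (12.4 ± 5.85 against 5.52 ± 3.36 FPKM, SD, n = 3) and Timd4 (0.794 ± 0.125 against 0.220 ± 0.170 FPKM) had lower values without overlap, as did Folr2. Other genes of the list went the other way. Lyve1, Fcgr1, Mertk, Cd163 and Cd68 had higher means under the Nat10-CKO label, with overlap. For Cd163, Mertk and Lyve1 the higher mean came from Nat10-CKO replicate 1. Cd163 was 3.48, 3.04 and 4.45 FPKM against 10.8, 1.39 and 2.83 FPKM. Without that library the mean of Cd163 was 1.74-fold lower under the Nat10-CKO label, and those of Mertk and Lyve1 were nearly equal between groups. Fcgr1 and Cd68 kept a higher mean without it. Of the 13 tested, 5 had a log2 fold change below 0, and the median was 0.047. Cx3cr1 did not pass (limma adjusted p = 0.118), and Timd4, under the filter, passed with voom over genes with at least 20 reads (0.0403). H2-Ab1 over Ptprc was 8.12, 14.7 and 11.5 in the Nat10flox/flox libraries and 3.97, 4.51 and 5.35 in those labelled Nat10-CKO, with no overlap. H2-Ab1 over the summed macrophage markers was 0.139, 0.338 and 0.178 against 0.0430, 0.0533 and 0.0604. Cd74 over Ptprc was 19.2, 34.4 and 29.3 against 9.87, 11.7 and 13.6. For the exchange factor, H2-DMb1 over Ptprc was 0.676, 1.21 and 0.942 against 0.700, 0.406 and 0.645. H2-DMa over Ptprc was 0.214, 0.207 and 0.181 against 0.334, 0.117 and 0.102. Both overlapped between the groups. The ratios have no test here, and the markers do not tell which leukocyte carried the class II RNA.

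**Figure D4:**
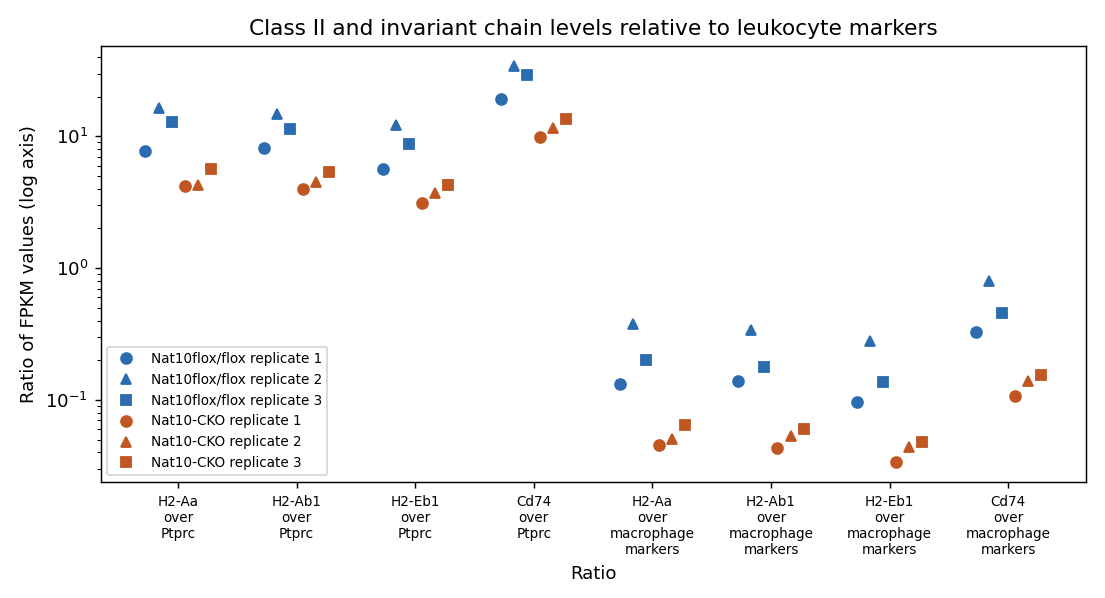
Ratio (log axis) of H2-Aa, H2-Ab1, H2-Eb1 and Cd74 to Ptprc and to the summed level of 14 macrophage markers in each library. The 3 libraries labelled Nat10-CKO lie below the 3 Nat10flox/flox libraries in each ratio of these 4 genes, for example 3.97 to 5.35 against 8.12 to 14.7 for H2-Ab1 over Ptprc.

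Most T cell and dendritic cell markers were highest in Nat10flox/flox replicate 2. The 6 T cell genes were all highest in that library, with summed levels of 3.52, 14.99 and 2.65 FPKM against 3.83, 2.33 and 2.53 FPKM, and none was at 0 in any library. Cd8a was 0.581, 2.67 and 0.315 FPKM against 0.806, 0.552 and 0.630 FPKM. Of 9 dendritic cell genes 7 were highest there, the sums being 9.11, 15.2 and 10.2 against 6.92, 7.05 and 8.24 FPKM, with no overlap between groups. Flt3 and Ccr7 were instead highest in Nat10-CKO replicate 1. Their means were higher under the Nat10-CKO label, with overlap (0.171 against 0.186 FPKM for Flt3, 0.135 against 0.326 FPKM for Ccr7). Itgax, the integrin CD11c, was 0.506, 2.16 and 0.516 FPKM against 0.571, 0.335 and 0.336 FPKM. Of 4 dendritic cell genes tested 2 were lower by limma and 1 with voom, where 16.0% of all tested genes were lower by limma. The 2 were Zbtb46 (limma adjusted p = 0.0173) and Clec10a (0.0416). Without Nat10flox/flox replicate 2 neither passed (0.0699 and 0.129), and without Nat10-CKO replicate 2 neither did (0.0563 and 0.121). Clec10a also missed the threshold without Nat10flox/flox replicate 3 (0.119) and without Nat10-CKO replicate 1 (0.0665) or 3 (0.0531). The 5 B cell genes summed to 2.67 to 4.28 against 2.39 to 2.60 FPKM, also without overlap, and 3 of them were highest in Nat10flox/flox replicate 2. The part of these cells in the class II values was not tested.

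Thymus lies beside the heart, and 5 thymocyte genes gave sums of 0.350 to 1.96 against 0.477 to 0.525 FPKM, of which Cd8b1 alone was 0.342 to 1.96 FPKM. Rag2 and Dntt, which define immature thymocytes, had 0 reads in all 6 libraries. Rag1 had 2 reads in each of Nat10flox/flox replicates 1 and 3, and Ptcra had 6 reads in Nat10flox/flox replicate 1 and 2 in Nat10-CKO replicate 1, with 0 elsewhere. The part of thymus RNA in the class II values was not tested. Monocyte genes (summed 3.68 to 9.99 against 3.16 to 34.7 FPKM) and neutrophil genes (6.12 to 21.1 against 3.71 to 26.4 FPKM) had their highest sums in the library labelled Nat10-CKO replicate 1, which held the lowest summed class II level. Of that monocyte sum, Chil3 alone was 25.7 FPKM, while Ly6c2, Plac8 and S100a9 were highest in Nat10flox/flox replicate 2. Of other heart cells, the 5 endothelial genes were all lower by limma and with voom, where 16.0% of all tested genes were lower by limma. They summed to 237 to 288 against 134 to 148 FPKM, and all 5 were highest in Nat10flox/flox replicate 2. Fibroblast genes (358 to 380 against 325 to 556 FPKM) had 0 calls (limma; 1 higher at an unadjusted p under 0.05, 0 with voom). Of 8 cardiomyocyte genes 1, Tnni3, was lower by limma, against the same 16.0% of all tested genes, and 1 was lower with voom.

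**Figure D5:**
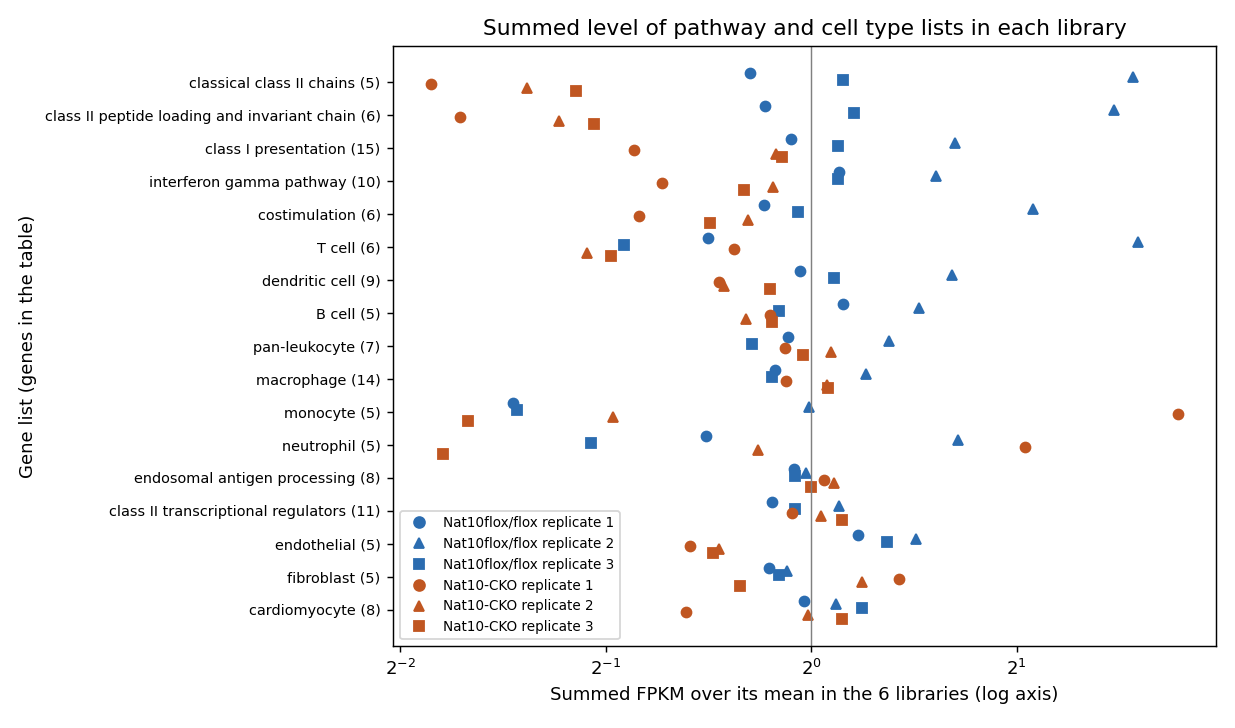
Summed FPKM of pathway and cell type lists in each library, divided by its mean over the 6 libraries (log axis), with the number of genes in parentheses. The list of class II chains separates by label, as does that of peptide loading genes with the invariant chain. Most of the latter sum is Cd74 (284 of 297 FPKM in the Nat10flox/flox means), while H2-DMa, H2-DMb2 and H2-Oa overlap between the groups. The class II regulators and the macrophage list overlap between the groups. The T cell list separates Nat10flox/flox replicate 2 (14.99 FPKM) from the other 5 libraries (2.33 to 3.83 FPKM).

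The profiles of the chains and Cd74 over the libraries lay close together. Likeness was taken as the root-mean-square difference of log2(FPKM + 1) profiles over the 6 libraries, each centred on its own mean. Between H2-Aa, H2-Ab1, H2-Eb1 and Cd74 it was 0.049 to 0.109, smallest for H2-Ab1 and Cd74. It was 0.442 to 0.472 between these 4 and H2-DMb1 and 0.854 to 0.908 between them and H2-DMa. Among 11990 other genes, the 6 nearest to the mean profile of the 6 tested members were Cd274, Mgl2, Gm26387, Nkg7, Gzma and Igtp, at 0.207 to 0.304. Cd274, the checkpoint ligand PD-L1, was 10.1, 30.9 and 9.74 FPKM against 4.15, 6.23 and 6.74 FPKM. Mgl2, a lectin of macrophages and dendritic cells, was 0.880, 3.30 and 1.43 FPKM against 0, 0.276 and 0.208 FPKM. Nkg7 and Gzma belong to cytotoxic lymphocytes. Gzma was 1.34, 11.8 and 2.33 FPKM against 0.524, 0.556 and 0.434 FPKM. Igtp, an interferon-induced GTPase, was 175, 411 and 175 FPKM against 54.0, 109 and 121 FPKM. These genes were picked for their likeness, so their values are a description.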

How the data were processed

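RNA sequencing of 6 hearts of 10-day-old mice was used, 3 per label. Per the series' design text and the submitters' processing notes, HISAT2 2.2.1 placed paired reads on GRCm39 and featureCounts 2.0.6 counted them per gene. The deposited values are FPKM, made by the authors. FPKM times gene length came in whole reads for 100% of values (tolerance 0.01 read), which gave back reads. The per-library denominators equalled median-of-ratios size factors times the geometric mean of the totals, so the FPKM already carry that scaling. The strand setting and the definition of gene length are not given in the sources used here.

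The group test was limma 3.58.1 (R 4.3.3; lmFit, eBayes with trend, two-sided) on log2(FPKM + 1) over genes with a mean of at least 1 FPKM, with Benjamini-Hochberg adjustment over all of them and a threshold of 0.05. The steps were tested on simulated reads, with the same setting for variation between replicates in every gene. That simulation does not show how the steps perform at the spread of the members. Folds are ratios of mean FPKM. Tested lists, members and the rule for named genes were chosen with earlier results of these data known. The rule took the 7 members, Nat10, all class II chain, loading, regulator and turnover genes, up to 4 called genes of each other pathway list (or the smallest p), the first 2 genes of each marker list and the 6 genes of nearest profile. Not every gene it names is given, and others named were chosen after their values were seen. Alternatives covered the pseudocount (0.1, 0.5), the filter (none, 5 FPKM), scaling, voom, trend, a replicate block and left-out libraries. Voom over genes with at least 20 reads was added after the data were seen. Motifs were searched in RefSeq promoters with Python 3.11.15, and figures were drawn with matplotlib 3.10.9. Some results are not reported here.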

Additional observations from a re-analysis of the deposited data

How the results depend on the processing

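The 6 tested members kept a negative log2 fold change in each alternative, except that H2-DMa was not tested with the filter raised to 5 FPKM. With no filter, 1 member was called lower (H2-Ab1, adjusted p = 0.0484 by limma), while H2-Aa (-1.95, adjusted p = 0.0545), H2-Eb1 (-1.81, 0.0747) and Cd74 (-1.84, 0.0512) missed the threshold, with more genes tested (27977). With each library left out in turn, the number of members called lower ranged from 2 to 5, being 2 without Nat10-CKO replicate 2. The log2 fold changes then ranged from -2.37 to -1.41 for H2-Aa, -2.23 to -1.38 for H2-Ab1, -2.21 to -1.24 for H2-Eb1, -2.20 to -1.35 for Cd74, -1.44 to -0.67 for H2-DMb1 and -0.77 to -0.32 for H2-DMa, the value nearest 0 always being that without Nat10flox/flox replicate 2. H2-DMb1 was called with a pseudocount of 0.1 (-1.32, adjusted p = 0.0468), with the filter raised to 5 FPKM (-1.14, 0.0466), with mitochondrially encoded genes left out (-1.23, 0.044) and without both replicates numbered 1 (-1.48, 0.0461); the cause was not tested. Over all genes, 3333 to 5331 were called, against 4856; of these 1159 were lower with the filter raised to 5 FPKM, 1207 without Nat10flox/flox replicate 2 and 1212 without replicate 3, against 1924. Voom on recovered reads called 4890 genes.

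The labels number replicates 1 to 3 in both groups. Same-numbered libraries had correlations of deviations from the group means of 0.065, 0.037 and 0.105, and not every library correlated best with its own number, so the numbers are not taken to pair the samples. With a replicate block 4390 genes were called and the same number of members, 4, was lower, with 8 class I genes lower against 4, 4 interferon gamma genes against 1, 1 costimulation gene against 0 and 0 processing genes against 1. Depth limits Ciita, H2-Oa, H2-Ea and H2-Eb2 more than the chains, which held at least 897 reads in each library.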
